A study of Drosophila melanogaster with 8 samples.

Results

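In *chico* heterozygous flies, 429 of the 1331 regions enriched by dFOXO chromatin immunoprecipitation (ChIP) had their centre on the 5' side of a gene shorter than 10000 bp. Members were taken from the authors' region list for *chico*, with 1 row kept for each distinct region, namely that of the gene with the lowest listed rank. A region was kept where that row placed it inside the gene on its 5' side and where the gene, from its first to its last base, was under the length limit. In 198 regions 2 rows shared the lowest rank, and there the row with the smaller listed distance was used, since keeping the first row in file order would have left 410 members. The 429 regions belonged to 429 different genes.

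Chromatin came from whole adult females aged 15 days, with 200 to 250 flies (about 200 mg) pooled for each ChIP sample. The *chico* flies were heterozygous for a mutant allele of *chico*, the gene for the insulin receptor substrate, and the other genotype had lost part of its insulin-producing cells (IPCs), neurons of the adult brain, through the inducible *Dilp2-GeneSwitch-Gal4* driver and *UAS-reaper*. Both genotypes have reduced insulin signaling, and no list from wildtype flies was used here, so input DNA was the only background. Each genotype had 2 ChIP and 2 input samples, 8 in all, whose replicates the authors pooled, so that no error between replicates can be given and every interval below covers counting error only.

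FOXO is the forkhead transcription factor that insulin signaling holds in the cytoplasm through phosphorylation. When insulin signaling falls, FOXO enters the nucleus and activates or represses genes of growth, translation and metabolism, among which the translation repressor *4ebp* (*Thor*) is a standard fly target. Transcription factors often bind near the 5' end of a gene, where transcription starts, and in a short gene a region on the 5' side lies close to that end by necessity.

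Members with the most direct follow-up in the study are those whose binding was tested by ChIP-PCR. The 4 primer pairs of that assay printed here belong to genes described here on arms 2L and 3L, and they are shown because they are the study's designed sequences for testing binding at these genes. They are given 5' to 3' in lower case as the study lists them, and they were not placed on the genome here.
*4ebp* (*Thor*, 2L) forward: gattggcgtttagtgctgttggct
*4ebp* (*Thor*, 2L) reverse: gcttctcgccttgagctcttgttt
*hairy* (*h*, 3L) forward: gtgcgcacaaccttgtgatcttgt
*hairy* (*h*, 3L) reverse: ttcgtggtttgctgattcatgcgg
*esg* (2L) forward: agttcggcacgtgaggcaattcta
*esg* (2L) reverse: ggctcattacacgaagctgccaaa
*GlyP* (2L) forward: ttcaggttcaggtctgggttgtgt
*GlyP* (2L) reverse: tagttctctgattccgttgcgtgg

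Most of the 429 regions showed a small excess of ChIP over input. The enrichment, the ratio of ChIP tags to input tags scaled to the ChIP library, had a median of 1.10 over the members (quartiles 1.08 and 1.13, range 1.07 to 1.56), against a median of 1.10 over all 1331 *chico* regions. A median member held 698 ChIP tags and 628 scaled input tags in a region of 1433 bp. By an exact one-sided binomial test of ChIP against scaled input tags, Benjamini-Hochberg adjusted over all candidate regions, 13 of the 429 members passed at an adjusted p of 0.01 or less, and the same test called 2.70% of all *chico* regions. Before adjustment, 279 members (65.0%) had an exact p under 0.05, against 61.4% of all *chico* regions. The authors called all 1331 regions for ChIP above input in these same tags, so an excess within the list follows from that choice. The share of members with an exact p under 0.05 was near that of the list. In 203 members (47.3%) the enrichment was under 1.1, against 47.4% of all *chico* regions. It was 1.2 or more in 24 of the 429 members and in 75 of all 1331 regions.

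The 13 members that passed were *l(1)G0320*, *CG15684*, *h*, *CG8547*, *IP3K1*, *CG10365*, *esg*, *Oda*, *osk*, *Tsp42Ef*, *blow*, *CG11899* and *CG9896*. Their enrichments lay between 1.23 and 1.56 with a median of 1.34, and the lower bounds of their 95% intervals from 1.13 to 1.35. Positions are those of the authors' list, whose genome build is not given in the sources used here.

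The lowest p belonged to *l(1)G0320* (FBgn0028327), a homolog of a subunit of the translocon-associated protein complex of the endoplasmic reticulum. Its region (X, 9447168 to 9447998) held 666 ChIP tags against 442 from input, and its enrichment was 1.51 (95% interval 1.33 to 1.70, exact binomial p = 9.0e-12). The centre lay 120 bp inside the gene, and the region covered the gene's 5' end. *CG15684* (FBgn0038785, 3R, 16135771 to 16136485) had the largest enrichment of all members, 1.56 (1.35 to 1.79), from 520 ChIP and 334 input tags. Its gene is only 552 bp long, and the region covered the whole of it, so that position within this gene cannot be read from the region. The name had no match in the Release 6 gene table.

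Among the 13 were also regulators of cell fate. *hairy* (*h*, FBgn0001168), a basic helix-loop-helix repressor of segmentation and bristle patterning, held 1027 ChIP tags against 766 input tags (enrichment 1.34, 1.22 to 1.47) in a region of 1671 bp (3L, 8667618 to 8669288). Its centre lay 406 bp upstream of the gene. *escargot* (*esg*, FBgn0001981), a Snail-family zinc finger protein that keeps intestinal stem cells and other progenitors undifferentiated, held 485 against 340 tags (1.43, 1.24 to 1.64) in a region of 723 bp (2L, 15333328 to 15334050) centred 175 bp upstream. Both regions spanned the 5' end of their gene.

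Among the rest of the 13, *oskar* (*osk*), which organizes the germ plasm of the oocyte, held 424 ChIP and 291 input tags (1.46, 1.25 to 1.70), 151 bp inside the gene. *blown fuse* (*blow*), needed for myoblast fusion, held 395 and 270 tags (1.46, 1.25 to 1.71), 165 bp inside. Both had fewer tags than most members and a larger excess. *Ornithine decarboxylase antizyme* (*Oda*), which targets the first enzyme of polyamine synthesis for degradation, held 430 and 295 tags (1.46, 1.25 to 1.70). Its region was the narrowest of all members at 552 bp, its centre lay 1197 bp inside the gene, and it was the single passing region that did not reach the annotated 5' end.

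*IP3K1*, a kinase that phosphorylates the second messenger inositol 1,4,5-trisphosphate, held 911 ChIP and 704 input tags (1.30, 1.17 to 1.43), and *Tsp42Ef*, one of a cluster of tetraspanin membrane proteins, held 945 and 744 (1.27, 1.15 to 1.40). *CG11899*, which encodes a phosphoserine aminotransferase of serine synthesis, had the most ChIP tags of the 13, 1085 against 880 (1.23, 1.13 to 1.35), and the smallest enrichment among them. *CG8547* (1.30), *CG10365* (1.34) and *CG9896* (1.29) have only CG numbers in the list and in the Release 6 gene table.

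**Figure D1:**
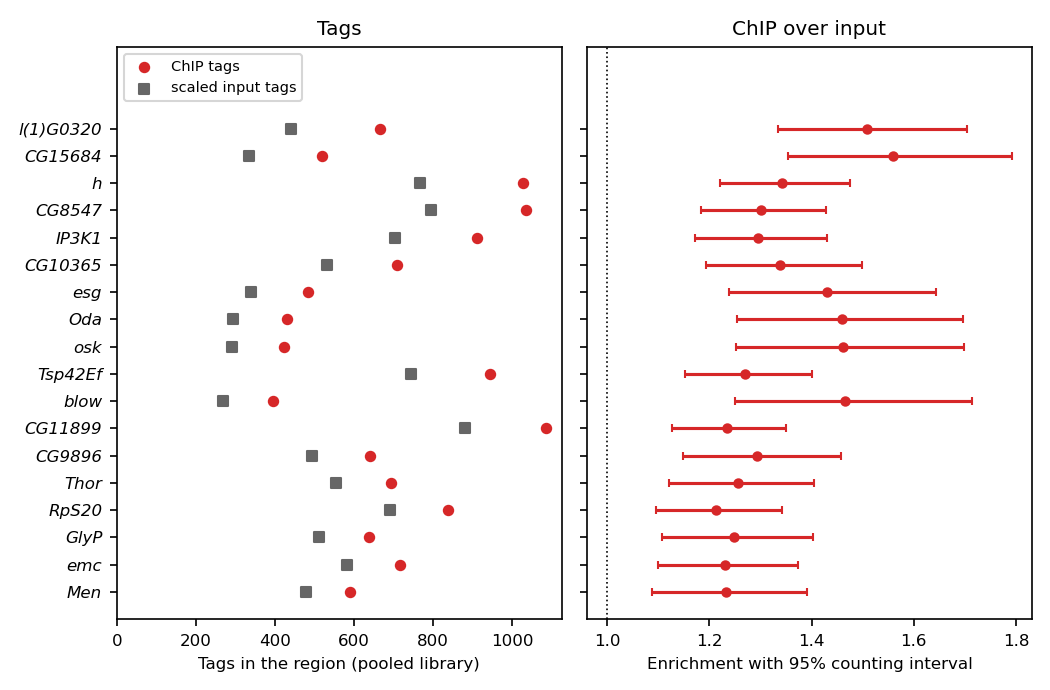
ChIP tags and scaled input tags of the pooled *chico* libraries (left) and their ratio with its 95% counting interval (right) for the 14 members with the lowest exact p and for *RpS20*, *GlyP*, *emc* and *Men*. The ChIP tags exceed the input tags in every region drawn and no interval reaches 1, while the intervals of most of these members overlap each other. Only members with a low exact p are drawn, so intervals clear of 1 follow from that choice.

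*Thor* came next in order and did not pass. This gene (FBgn0022073) encodes 4E-BP, which binds eIF4E and holds back cap-dependent translation. Its region (2L, 3477793 to 3478824) held 695 ChIP tags and 554 input tags, an enrichment of 1.26 (1.12 to 1.41), with an exact p of 3.7e-05 and an adjusted p of 0.025 by the binomial test with Benjamini-Hochberg adjustment. The centre lay 126 bp upstream of the gene and the region covered its 5' end. *GlyP*, the glycogen phosphorylase that releases glucose from glycogen stores, held 638 and 512 tags (1.25, 1.11 to 1.40, adjusted p = 0.055 by the same binomial test), with its centre 38 bp upstream. *RpS20* (1.21), a protein of the small ribosomal subunit, and *emc* (1.23), a helix-loop-helix inhibitor of basic helix-loop-helix proteins, were also centred within 500 bp of the 5' end. Of the 23 genes that the study chose for expression and lifespan work, 6 were members (*h*, *esg*, *Oda*, *Tsp42Ef*, *Thor* and *GlyP*), with enrichments from 1.25 to 1.46. That choice rested partly on these data, so it is no independent evidence for the 6. In a separate assay, ChIP-PCR, the study reports significantly more dFOXO binding at all its candidates in both genotypes than in wildtype flies. Those measurements were not analyzed here.

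The centre of a member lay a median of 699 bp downstream of the gene's 5' end, counted along the strand of the gene (quartiles 376 and 1197 bp, range 1163 bp upstream to 4059 bp downstream). The centre was upstream of the gene in 47 members, and in all 47 the region still reached into the gene. It lay within 250 bp of the 5' end in 56 members, within 500 bp in 137 and within 1000 bp in 292. The region itself covered the 5' end in 230 of the 429 (53.6%), and in 28 it covered the whole gene. The centre nearest to a 5' end was that of *CG10928*, 6 bp away, and the farthest inside was that of *CG32767*, at 4059 bp. Relative to gene length no centre lay beyond 49.9%, so that the listed 5' side means the part before the midpoint, and in genes with a median length of 2663 bp (411 to 9825 bp) this bounds the distance.

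**Figure D2:**
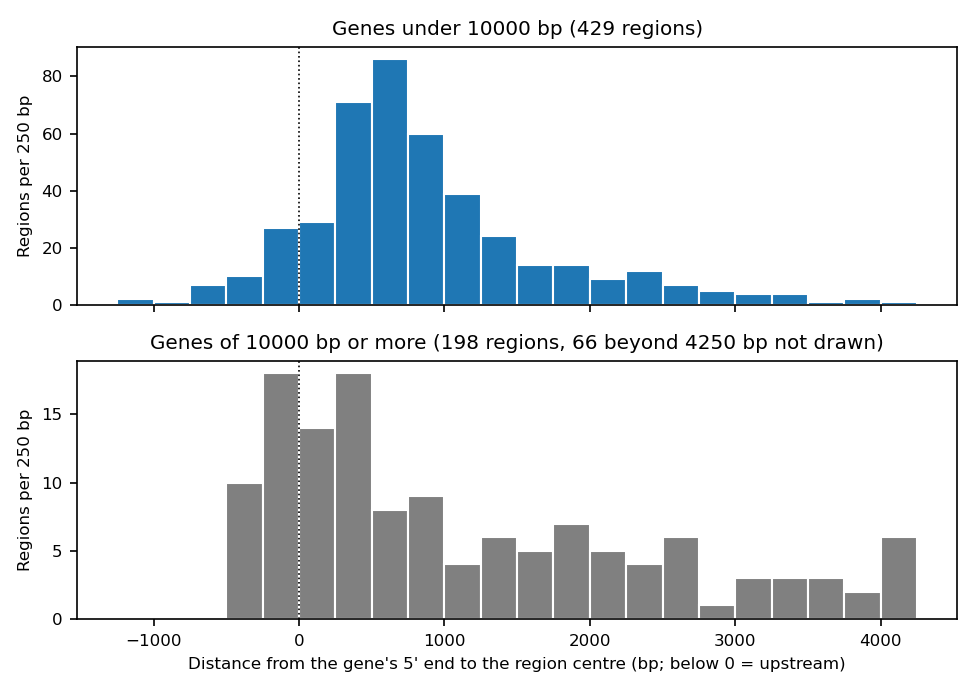
Number of regions per 250 bp of distance from the gene's 5' end to the region centre, along the strand of the gene, for the 429 regions in genes under 10000 bp (top) and the 198 in longer genes (bottom). Short-gene regions were most frequent between 500 and 750 bp downstream (86 regions), and 66 of the longer-gene regions lay beyond the axis.

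In longer genes, those of 10000 bp or more, 198 *chico* regions had a centre on the 5' side. A similar share of them had the centre within 500 bp of the 5' end (30.3%, against 31.9% of members), and a smaller share within 1000 bp (38.9% against 68.1%). Fewer of the longer-gene regions covered the 5' end, 34.8% against 53.6% of members. More of them passed the exact test, 20 of 198 or 10.1% against 3.03% of members, and their largest enrichment was 2.52 against 1.56. None of these differences was tested, and the first 3 are bounded by the gene length that defines the groups. Median enrichment (1.11 and 1.10), median width (1321 and 1433 bp) and median ChIP tags (660 and 698) were close.

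Among members, the regions that passed lay nearer to the 5' end than the others. The centre was within 500 bp in 10 of the 13, against 127 of the 416 that did not pass, and the region covered the 5' end in 12 of 13, against 52.4% of the 416. The median position was 203 bp downstream in the 13, 750 bp in the 266 with an exact p under 0.05 that did not pass, and 633 bp in the 150 with a p of 0.05 or more. Passing regions were also narrower, with a median of 915 bp against 1522 bp in the 266. When all 429 were ordered by enrichment and divided into 4 groups of equal size, the top group had 52 of 107 centres within 500 bp, and the other groups, from the lowest upward, had 34 of 108, 22 of 107 and 29 of 107. Over the 429 regions Spearman's rho between enrichment and absolute distance was -0.14, and between enrichment and width -0.14. Between width and absolute distance it was 0.31. The same pattern was seen in longer genes. Among the longer-gene regions, 80.0% of passing centres lay within 500 bp, against 24.7% of those not passing. Their median widths were 667 and 1346 bp, and rho of enrichment was -0.29 with distance and -0.30 with width. All points share the same pooled libraries, and the relation is given as a description.

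**Figure D3:**
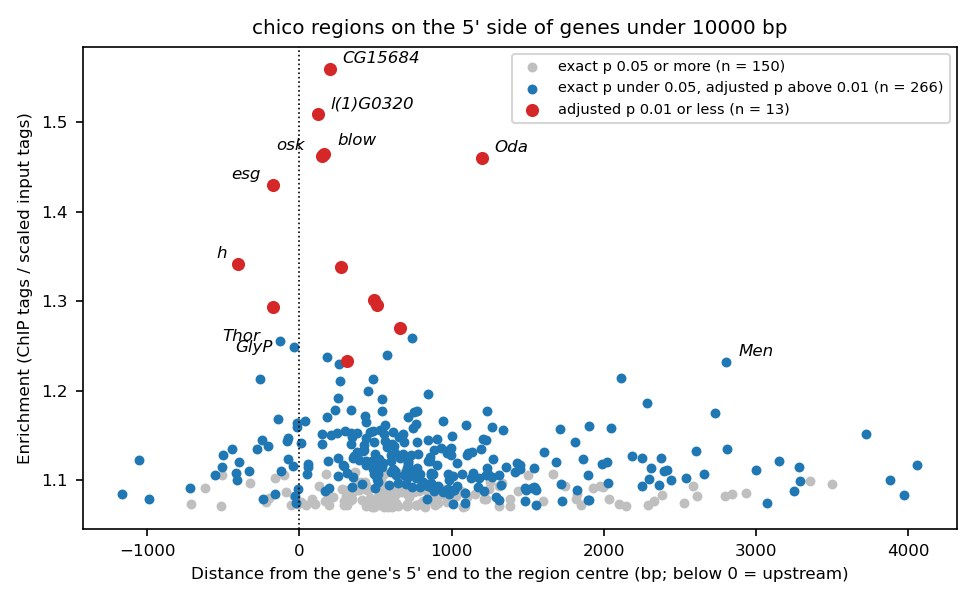
Enrichment of each of the 429 regions against the distance from the gene's 5' end to the region centre; red points passed the exact test at an adjusted p of 0.01 or less, blue points had an exact p under 0.05 only, and grey points neither. Red points sit between 406 bp upstream and 661 bp downstream, apart from *Oda* at 1197 bp, while blue and grey points extend to 4059 bp.

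Of the 24 members with an enrichment of 1.2 or more, 2 lay over 2000 bp from the 5' end, and neither passed. *Men*, the malic enzyme that supplies NADPH for fat synthesis, held 589 ChIP tags and 479 input tags (1.23, 1.09 to 1.39) at 2801 bp. Its exact binomial p was 0.00042 and its adjusted p 0.16. *CG9817* held 895 and 738 tags (1.21, 1.10 to 1.34, adjusted p = 0.037 by the same binomial test) at 2115 bp. Neither region reached the annotated 5' end, and whether another transcript starts near either was not examined. The 5 widest members, of 3818 to 5806 bp, had enrichments of only 1.07 to 1.09, and 4 of them were also among the 5 with most ChIP tags (1792 to 2586).

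Gene functions were described over 16 groups, 11 written as gene lists and 5 as gene families, which took in 109 of the 429 members. The other 320 belonged to no group, and 273 members (63.6%) carry only a CG number in the list, against 31.8% of the longer genes. Of the 429 names, 403 were matched to the Release 6 gene table, all on the same arm and all protein coding, and 58 of the matched CG numbers have since received a name. Group medians of enrichment ran from 1.09 to 1.18, around the 1.10 of all members, and at most 1 member of any group passed. For the counts below, 65.0% of all members and 61.4% of all *chico* regions had an exact p under 0.05 by the binomial test. Over the whole list 429 of 1331 regions were members, and membership depends on gene length. Group genes counted in the *chico* list include those of any row, not only of kept rows.

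Transcription factors formed 2 of the groups. Of 57 basic helix-loop-helix and E(spl) complex genes listed, 20 were in the *chico* list and 9 were members, of which 5 had an exact p under 0.05 and *h* passed (group median 1.10). *h* and *emc* had the largest values. *m6* (961 and 843 tags, 1.14, 1.04 to 1.25) and *m2* (557 and 489, 1.14, 1.01 to 1.29) came after them. The latter genes lie in the E(spl) complex, the cluster of Notch targets, and encode small Bearded-type proteins, not basic helix-loop-helix proteins. The lowest was *HLHm3* of the same complex, with 585 and 545 tags (1.07, 0.95 to 1.21). All 9 regions covered the 5' end of their gene, and all 9 genes were 842 to 4100 bp long. *m2*, *HLHm3* and *m6* follow each other on 3R, with centres 5030 and 10903 bp apart.

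Of the other developmental transcription factors 13 were members, 8 with an exact p under 0.05, with a median of 1.11. *esg* alone passed. *Ets96B*, an ETS factor, held 626 ChIP and 541 input tags (1.16, 1.03 to 1.30), and *repo*, the homeodomain protein that specifies glia, held 612 and 529 (1.16, 1.03 to 1.30). The smallest enrichment was that of *hkb*, a terminal gap gene, with 821 and 760 tags (1.08, 0.98 to 1.19).

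Insulin signaling and its effectors contributed 3 members, all with the 5' end covered. Besides *Thor* these were *Sirt7*, a sirtuin deacetylase, with 1336 ChIP and 1211 input tags (1.10, 1.02 to 1.19) centred 350 bp inside the gene, and *Ilp7*, an insulin-like peptide of neurons in the ventral nerve cord, with 636 and 590 tags (1.08, 0.96 to 1.21) at 81 bp. Only *Thor* and *Sirt7* had an exact p under 0.05. The interval of *Ilp7* includes 1, so no excess was detectable there at this depth.

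Fuel and lipid metabolism had 13 members among 19 genes of the *chico* list, 10 of them with an exact p under 0.05 and none passing (median 1.11). *GlyP* and *Men* led, followed by *Fad2*, a desaturase that makes female cuticular hydrocarbons, with 613 and 528 tags (1.16, 1.03 to 1.31). The smallest value was that of *Lsp2*, a larval storage protein, with 1307 and 1218 tags (1.07, 0.99 to 1.16). The 5' end was covered in 5 of the 13, and their median position was 1009 bp inside the gene.

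Translation and RNA genes had 11 members, 8 with an exact p under 0.05 and none passing (median 1.11). After *RpS20* (839 and 692 tags, 1.21, 1.10 to 1.34) came *Elf*, the translation release factor eRF3, with 788 and 678 tags (1.16, 1.05 to 1.29), and *Ef1alpha100E*, an elongation factor, with 700 and 623 (1.12, 1.01 to 1.25). *RpI135*, a subunit of RNA polymerase I, was lowest with 603 and 558 (1.08, 0.96 to 1.21). Not all of these genes act in translation, since *Psi* is a splicing factor and *ear* acts in transcription elongation.

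Cell polarity, junction and cytoskeleton genes had 14 members, 9 with an exact p under 0.05 and none passing (median 1.10). *Scgdelta*, a sarcoglycan of muscle, held 1051 and 912 tags (1.15, 1.05 to 1.26). *inx2*, a gap junction innexin, held 1218 and 1072 (1.14, 1.05 to 1.23), and *par-6*, of the apical polarity complex, 768 and 686 (1.12, 1.01 to 1.24). *wee*, placed in this group but known as a kinase that delays mitosis, was lowest with 589 and 546 (1.08, 0.96 to 1.21).

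Synapse, axon guidance and phototransduction genes had 11 members, with the highest median among groups of 9 or more, 1.13, and 8 with an exact p under 0.05. *IP3K1* passed. *dpr5*, an immunoglobulin protein of neurons, held 782 and 670 tags (1.17, 1.05 to 1.30) centred 143 bp upstream, and *trp*, the light-activated channel of photoreceptors, held 556 and 482 (1.15, 1.02 to 1.31). *kek4*, a leucine-rich repeat protein, was lowest with 896 and 834 (1.08, 0.98 to 1.18).

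Chemoreceptor genes, which are short, had 12 members among 24 in the *chico* list. The 5' end was covered in 10 of the 12 and the exact p was under 0.05 in 6. *Or56a*, the receptor for geosmin, held 573 and 481 tags (1.19, 1.05 to 1.35), *Or13a* 610 and 529 (1.15, 1.02 to 1.30) and *Or94b* 559 and 492 (1.14, 1.00 to 1.29). *Or45b* was lowest with 566 and 530 (1.07, 0.947 to 1.205). *Or94a* and *Or94b* are neighbours on 1 strand, and their centres were 2046 bp apart.

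The small groups were as follows. Of 5 genes placed in the germline, meiosis and egg chamber group *osk* passed and the eggshell gene *dec-1* held 636 and 561 tags (1.13, 1.01 to 1.27). The 3 others, *Acp32CD* (1.10), *mei-217* (1.08) and *Fancd2* (1.08), had intervals that include 1. Of 4 peptide receptors and related genes *mthl1*, a Methuselah-like receptor, held 1384 and 1232 tags (1.12, 1.04 to 1.21). *capaR* (1.11), *CCKLR-17D3* (1.09) and *Gyc88E* (1.08) had an exact p of 0.05 or more.

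Immunity and protease genes were *Jon25Bii*, a gut serine protease, with 588 and 500 tags (1.18, 1.04 to 1.33), *nimC3* (1.12) and *TepIII* (1.10). TGF-β, Wnt and Hedgehog genes were *tld*, the metalloprotease that frees BMP ligands, with 1738 and 1593 tags (1.09, 1.02 to 1.17), and *arm*, the fly β-catenin, with 601 and 554 (1.09, 0.96 to 1.22). The latter region lay 2933 bp inside its gene.

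Sodium channels of the pickpocket family were *rpk* (1.11) and *ppk23* (1.11), P450 genes were *Cyp28c1* (1.12) and *Cyp6a16Psi* (1.13), which Release 6 lists as the protein-coding *Cyp6a16*, and the tetraspanin member other than *Tsp42Ef* was *TM4SF* (1.09). Of 4 Osiris and cuticle genes *Ccp84Ag*, a cuticle protein, held 721 and 616 tags (1.17, 1.05 to 1.31), and *Osi7* (1.10), *Osi20* (1.09) and *Osi9* (1.07) had an exact p of 0.05 or more.

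**Figure D4:**
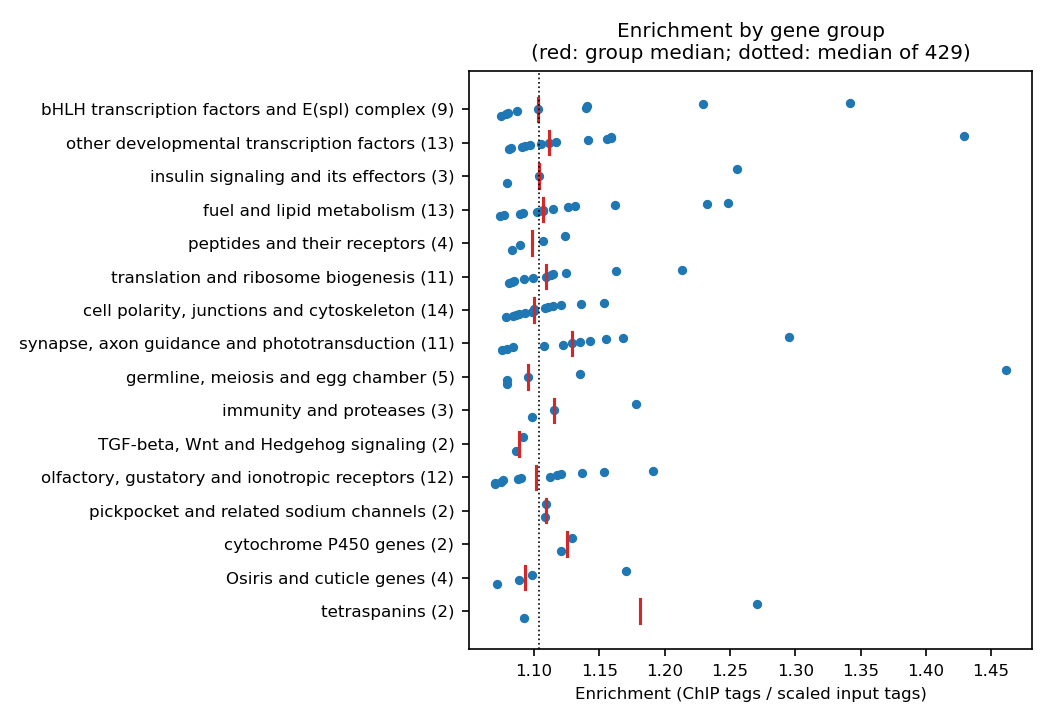
Enrichment of the members in each of the 16 gene groups (number of members in brackets), with the group median in red and the median of all 429 members as a dotted line. In most groups the medians lie between 1.09 and 1.13 near the dotted line, and single genes such as *osk*, *esg*, *h* and *IP3K1* lie far to the right of the rest of their group.

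Many members are listed with more than 1 gene. In total 214 members (49.9%) had at least 1 further gene, against 19.2% of the longer-gene regions. In 30 members the 5' end of another gene lay within 1 kb of the region centre. In 18 of them the genes pointed away from each other with 5' ends 20 to 363 bp apart. In 7 they lay on opposite strands, with the other gene's 5' end downstream of the member's own, and in 5 they lay on the same strand. For these regions it cannot be told apart which gene the signal belongs to. The centre of the *RpS20* region lay 258 bp from the start of *RpS20* and 56 bp from that of its divergent neighbour *CG17271*. *mRpS11*, a mitochondrial ribosomal protein, and *ns1* lay on opposite strands, with the 5' end of *ns1* 56 bp downstream of that of *mRpS11*. *twf*, the actin-binding twinfilin, and its divergent neighbour *Abi* had 5' ends 238 bp apart, neither of which the region reached. These examples, and the neighbours named next, were chosen after their values were seen.

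Members also lay near each other. Of 424 pairs of adjacent members 32 had centres within 10 kb, while the median spacing was 139.7 kb. The closest were *CG4955* and *CG8945* on X, 1949 bp apart, with enrichments of 1.12 and 1.10. The centre of *Fancd2* (1.08) lay 6713 bp from that of *RpS20* (1.21), and that of *CG4362* (1.12) lay 3362 bp from that of *CG15684* (1.56). The neighbour of the most enriched member was thus close to the median of all members. By arm there were 137 members on 3R, 90 on X, 85 on 2L, 81 on 2R and 36 on 3L, and their median enrichments were 1.10 or 1.11 on each arm.

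At the length limit the members just inside were *PR2* (9825 bp, 665 ChIP and 618 input tags, enrichment 1.08, 0.963 to 1.203) and *CG12581* (9821 bp, 801 and 746 tags, 1.07, 0.97 to 1.19). The regions just outside were those of *CG10543* (10003 bp, 568 and 511 tags, 1.11, 0.98 to 1.26) and *Gyc32E* (10075 bp, 598 and 537 tags, 1.11, 0.99 to 1.25). All 4 intervals include 1 and overlap. In Release 6 the gene was longer in some members, and 26 of them have one of 10000 bp or more, among them *twi*, *cic*, *kek2* and *Scgdelta*. All passing members that could be matched stayed under the limit there.

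Of the 429 members, 30 (6.99%) shared at least 1 base with a region of the IPC list, against 6.16% of all *chico* regions. These 30 met 29 IPC regions, since *CG9975* and *CG11961* fell in the same one. All 30 lay wholly inside the IPC region, which was 5348 to 56394 bp wide (median 16667 bp), and a member filled 2.12% to 34.9% of it. The listed centres were within 500 bp of each other in 14. The overlap was uneven between arms, with 23 of the 30 on 2R, 3 each on 2L and 3L, 1 on X and none of 137 on 3R. On 2R 28.4% of members overlapped, against 22.2% of all *chico* regions there. The IPC list covers 4.13 Mb of 2R with 324 regions and 0.0578 Mb of 3R with 20.

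The members with the largest enrichment among the 30 were *esg*, *CG42284*, *Thor*, *Or56a*, *CG11400*, *CG13744*, *CG34185* and *CG12835*. *esg*, which alone of the 30 passed in *chico*, lay in an IPC region of 5629 bp with 1817 ChIP and 1813 input tags, an enrichment of 1.00 (0.94 to 1.07). *Thor* lay in an IPC region of 27269 bp with 10065 and 9855 tags (1.02, 0.99 to 1.05), and their centres were 188 bp apart. For *CG42284* (1.26 in *chico*) the IPC region of 47514 bp had 15878 and 15596 tags (1.02, 1.00 to 1.04), and the centres were 22486 bp apart. In *Or56a* the *chico* value was 1.19 (1.05 to 1.35) and the IPC value 1.03 (0.97 to 1.09). The remaining 4 had *chico* enrichments of 1.15 to 1.16 and IPC enrichments of 1.00 to 1.02.

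In all 30 the *chico* enrichment was above that of the IPC region, with medians of 1.13 and 1.02. The lowest enrichment of any *chico* region was 1.07, while the 30 IPC regions lay between 1.00 and 1.05. The order in all 30 was thus set by the range of the *chico* list and says nothing on the genotypes. In 4 (*esg*, *CG42284*, *Thor* and *CG34185*) the *chico* interval lay wholly above the IPC interval. The values cover different stretches of DNA and come from separately scaled libraries, so the difference between genotypes was not tested. The exact one-sided binomial test was also run on the IPC regions, with Benjamini-Hochberg adjustment over the IPC list. At an adjusted p of 0.01 or less it called none of those that contain the 30 members, and 5 of all 763 IPC regions.

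**Figure D5:**
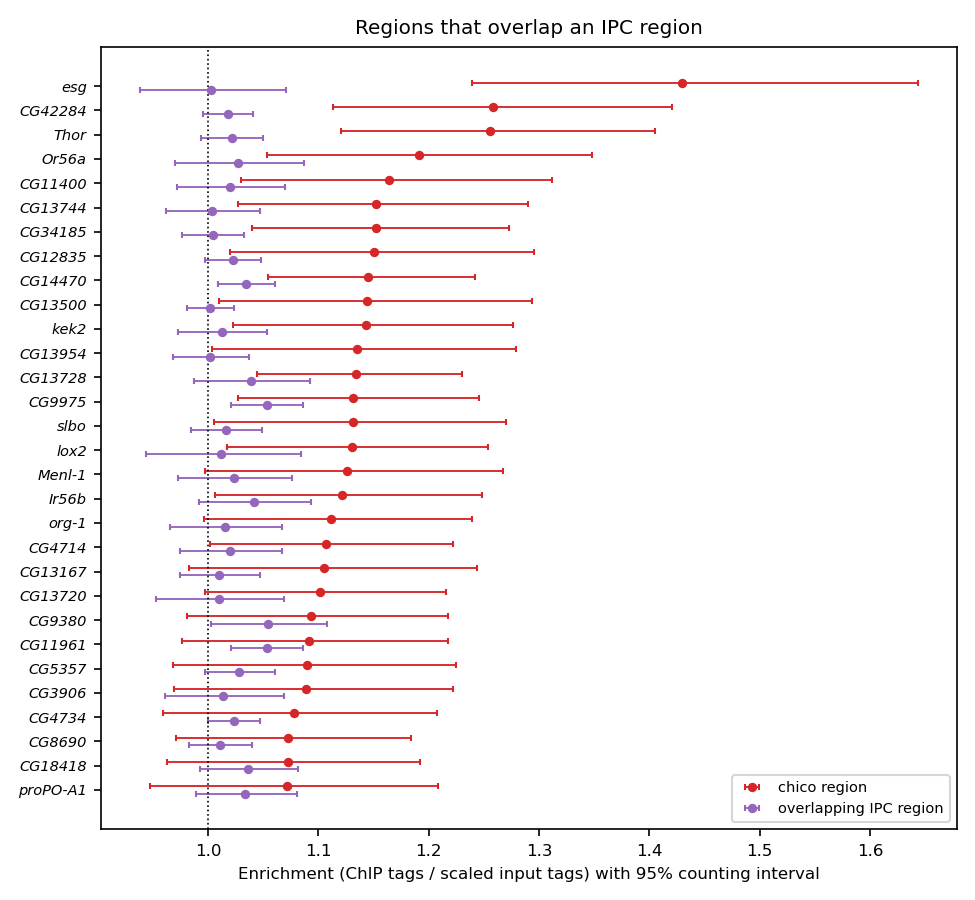
Enrichment with 95% counting interval of the 30 members that overlap an IPC region (red) and of the IPC region that contains each (purple), ordered by the *chico* value. The IPC values stay between 1.00 and 1.05 and the *chico* values between 1.07 and 1.43, with narrower intervals in the wider IPC regions.

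By gene identifier, 32 members (7.46%) had their gene in the IPC list, against 14.1% of all *chico* regions and 29.3% of the longer-gene regions. Of the 32 genes 22 came with an overlapping region, among them *esg*, *Thor*, *Or56a*, *slbo*, a C/EBP factor of border cell migration, and *org-1*, a T-box factor. For the other 10 the IPC region lay 737 to 6561 bp from the member. Among these were *Pfk*, the rate-limiting enzyme of glycolysis, with an IPC region 3189 bp away listed 5' of the gene, and *CG9896*, with one 4929 bp away listed 3' of the gene. The remaining 8 overlapping members, *CG42284* and *CG34185* among them, fell in IPC regions assigned to other genes.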

How the data were processed

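dFOXO ChIP DNA and input DNA were sequenced from *chico* heterozygotes and IPC-ablated flies. The authors pooled the replicates, aligned the reads with Bowtie (CASAVA 1.6 is also named in the submitters' processing notes; the build is not given in the sources used here) and called regions with PeakSeq at an FDR of 0.01. ChIP tags in the deposited list are raw counts over both replicates. The authors' input tags are a score, scaled to the ChIP library and rounded, so that the binomial test treats a scaled number as a count. Enrichment as deposited is a ratio, ChIP tags over scaled input. The authors' p-value was 0 for 424 members. For the other 5 it differed by at most 0.13% from the exact binomial p. Among all members, however, the exact one-sided binomial p reached 0.15 and was 0.05 or more in 150. Most of those 150 thus had a listed p of 0 that their tags do not give. The origin of these listed values of 0 was not resolved. The authors' p-value served only to find the number of candidate regions (26819) for the Benjamini-Hochberg adjustment. Total depth was not used, and precision rests on the tags of each region (395 to 2586 ChIP tags).

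Distance was counted along the strand from the listed gene end to the listed centre. Intervals of enrichments are exact (Clopper-Pearson) at 95%, and none is given for shares of regions. Named genes were the 12 members with the lowest p, the study's 23 candidates, the ends of each gene group, the 8 largest IPC overlaps and the extremes of distance and length. Genes named outside this rule, such as *CG9817*, *Pfk*, *slbo*, *org-1* and those given as examples, were picked with their values in view. The members, lists and groups were chosen with earlier results of these data known. The test was first run on simulated binomial counts, which have no replicate variation, no scaled input and no choice of regions by excess. That run cannot show how the test behaves on these data. Alternatives for input scaling, adjustment, length limit, row choice and overlap were tried. No sequence of the regions or promoters was used here, so motifs were left out. Tests ran in SciPy 1.17.1 under Python 3.11.15, tables in pandas 2.3.3 and NumPy 2.4.6, and plots in Matplotlib 3.10.9.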

Additional observations from a re-analysis of the deposited data

How the results depend on the processing

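Of 62 alternative values, 40 stayed within 1.5 times the reported count or within the counting interval of the median. The count of members that passed the exact test (13) was 7 with a length limit of 5000 bp, 20 with 20000 bp, 52 with the input lowered by 5%, 7 with it raised by 5%, and 25 when adjusted over the listed regions only. The count with an exact p under 0.05 (279) was 429 with the input lowered by 5%, 69 with it raised by 5% and 180 in a two-sided test, so it rests on the scaling of the input. With only enrichments of at least 1.2 kept (24 regions), that count was 24, the median enrichment 1.26, the centres within 500 bp 17, the overlaps with IPC regions 3, the genes in the IPC list 3 and the second starts 1. Centres near the 5' end numbered 56 within 250 bp and 292 within 1000 bp, and 230 regions covered the end. Overlaps with IPC regions (30) were 14 by listed centres within 500 bp, 2 by midpoints within 500 bp and 7 without arm 2R. Second starts (30) were 7 within 500 bp and 108 within 2 kb. The following settings were chosen after seeing the data: the first row in file order at tied ranks (410 members, 13 passing), members without the longer Release 6 genes (403, 13 passing) and the count without arm 2R. The motif alternatives were not run. No paired analysis was possible because the authors pooled the replicates. Replicates could not be left out in turn for the same reason, and precision is limited by the tags per region: the counting interval of a member with median tags includes 1.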
